A study of Mus musculus with 25 samples.

Results

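The 26S proteasome was followed through its 48 genes in RNA of sorted hippocampal neuronal nuclei. The genes were taken by name, as every gene called Psm followed by a letter from a to g and a number, and they make up 48 of the 24411 genes in each of 3 tables, 1 per experiment. In the aging experiment, 3 young (3 months) were set against 2 aged (18 months) wild-type libraries. In the overexpression experiment, young (3 months) mice had received virus into the hippocampus that carried either Ftl1 under the neuronal synapsin promoter (7 libraries labelled Ftl1 OE) or GFP alone (5 control libraries). In the knockdown experiment, aged (18 months) mice had received virus that expressed a short hairpin, directed in 4 libraries labelled Ftl1 KD at Ftl1 and in 4 control libraries at luciferase. All mice were male and C57BL/6, and nuclei were sorted by FACS for the neuronal antigen NeuN. The RNA is thus that of sorted nuclei, and RNA carried over from outside them was not measured. The tables do not say whether libraries of the viral experiments came from separate mice, and p-values there cover only the spread between the libraries.

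The 20S core of the proteasome is a barrel of stacked rings. Its outer rings are built from alpha subunits (Psma genes) and its inner rings from beta subunits (Psmb genes), of which Psmb5, Psmb6 and Psmb7 carry the proteolytic sites. Interferon and immune cells bring in Psmb8, Psmb9 and Psmb10, which replace those 3 and form the immunoproteasome. The 19S regulatory particle caps the barrel: its base holds a ring of ATPases (Psmc genes) that unfolds substrates, beside Psmd1, Psmd2 and the ubiquitin receptor Psmd4, and its lid (8 Psmd genes) includes Psmd14, the enzyme that removes ubiquitin chains. Psmg genes and Psmd5, Psmd9 and Psmd10 assist assembly, Psme genes encode other activators that open the barrel, and Psmf1 is an inhibitor. Neurons, like other cells, degrade short-lived and damaged proteins through this particle, synaptic proteins included.

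No proteasome gene passed the threshold in any of the 3 comparisons with limma at its main settings. In the knockdown experiment some alternative settings did call members, 2 of 20 with edgeR and 3 of 20 with median centring. Those settings called 192 and 197 of all 1460 genes higher. The values themselves were far from uniform, in 3 ways. Aged 3 lay above aged 2 for 34 of 44 members (77.3%), beside 49.2% of all genes tested. In the overexpression experiment, the beta ring genes were lower in the libraries labelled Ftl1 OE than in the controls, and the difference was smaller without control 9905 and control 9926. In the knockdown experiment, 16 of the 20 members with enough reads (80%, beside 49.5% of all genes) were higher in the libraries labelled Ftl1 KD, although a member can reach enough reads through the group where it is higher. The members differ in the GC content and the length of their transcripts, and the deviations of several libraries tracked both in part. The start of the coding sequence is shown for 2 GC-rich and 2 GC-poor members, picked after their values had been seen.

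The first 120 coding bases of 2 catalytic subunits with GC-rich transcripts, and of an alpha subunit and an ATPase with GC-poor ones, are given 5′ to 3′ from GENCODE M21 with G and C in capitals. Psmb5 (chromosome 14, 54614119 to 54618022, minus strand, GRCm38) had 63.3% G and C in this stretch and 57.7% in its whole coding sequence of 795 bases. Psmb6 (chromosome 11, 70525367 to 70527858, plus strand) had 65.0% and 56.9%. Psma3 (chromosome 12, 70974621 to 70996347, plus strand) had 46.7% and 42.2%. Psmc6 (chromosome 14, 45329788 to 45349705, plus strand) had 47.5% and 41.8%.
Psmb5: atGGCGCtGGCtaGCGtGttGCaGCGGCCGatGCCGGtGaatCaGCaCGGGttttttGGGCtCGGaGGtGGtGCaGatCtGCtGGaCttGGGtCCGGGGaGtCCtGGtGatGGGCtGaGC
Psmb6: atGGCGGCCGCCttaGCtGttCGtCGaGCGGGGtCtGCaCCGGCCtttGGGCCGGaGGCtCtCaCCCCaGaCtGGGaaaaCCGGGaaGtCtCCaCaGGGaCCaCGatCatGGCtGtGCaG
Psma3: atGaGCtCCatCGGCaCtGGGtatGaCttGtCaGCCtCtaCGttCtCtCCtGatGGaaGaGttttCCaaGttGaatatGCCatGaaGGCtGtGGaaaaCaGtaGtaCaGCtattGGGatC
Psmc6: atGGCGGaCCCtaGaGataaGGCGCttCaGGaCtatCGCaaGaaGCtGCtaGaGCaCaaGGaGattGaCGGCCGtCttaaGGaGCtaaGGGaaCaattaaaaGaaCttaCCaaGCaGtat

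Over whole transcripts, GC content ran from 37.0% in Psmc6 to 58.3% in Psmd3, with a median of 50.2% over the 48 members, and transcript length from 555 bases in Psmg4 to 6491 bases in Psme4. The genes lie on 16 chromosomes, 8 of them on chromosome 11 and 6 on chromosome 14. Psme1 and Psme2, the subunits of the interferon-inducible 11S activator, lie on chromosome 14 in opposite orientation, and Psmb8 and Psmb9 are neighbours on chromosome 17. Psmb9 overlaps Tap1 on the opposite strand, and 8 further members overlap a gene on the other strand and Psma2 overlaps AW209491 on the same strand, so reads of those 10 members may include reads of the partner. Processed copies of beta subunit genes are annotated (Psmb5-ps, Psmb6-ps, Psmb6-ps2 and Psmb7-ps2), and reads of Psmb5, Psmb6 and Psmb7 could be shared with them.

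The transcription factor NRF1 (Nfe2l1) drives proteasome genes through antioxidant response elements when proteasome activity falls short. A core of that element, TGACNNNGC on either strand, was found in the RefSeq promoters (GRCm38.p6, 250 bases before to 50 after the start) of 6 of 40 members that had a promoter in the table. That is 15% of members against 14% of all 27025 genes with a promoter. The 6 matches are shown 5′ to 3′ on the strand that reads TGAC, with the core in capitals. At a share so near that of all genes, a match does not show a working element. Binding of NRF1 to these sites was not tested.
Psmb5 promoter, chr14:54618024-54618052, minus strand: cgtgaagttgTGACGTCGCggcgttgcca
Psmb6 promoter, chr11:70525338-70525366, plus strand: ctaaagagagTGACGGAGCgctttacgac
Psmc6 promoter, chr14:45329587-45329615, minus strand: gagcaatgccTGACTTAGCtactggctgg
Psmd12 promoter, chr11:107479278-107479299, minus strand: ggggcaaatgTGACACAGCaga
Psmd9 promoter, chr5:123228149-123228177, plus strand: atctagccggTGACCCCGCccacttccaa
Psme4 promoter, chr11:30771758-30771786, minus strand: gctcttctggTGACGCTGCagccgcagcg

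The sites began 47 bases before the RefSeq start in Psmb5, 9 before it in Psmb6, 31 before it in Psmd9 and 7 before it in Psme4, but 227 and 247 bases before it in Psmc6 and Psmd12. RefSeq starts can differ from the GENCODE positions given for the genes. In GENCODE M21, Psme4 starts at 30771726 and Psmd9 at 123169413, so their sites lie inside the annotated genes. The 6 genes did not share a direction: in the overexpression comparison their log2 fold changes ran from -0.62 in Psmb5 to 0.80 in Psmc6. The CCAAT box was found in 35% of members and 41.1% of all genes.

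Ftl1, the targeted gene, was checked first. Young libraries 1, 2 and 3 held 1685, 1925 and 2141 normalized counts of it, and aged libraries 2 and 3 held 4247 and 4272 (log2 fold change 1.16 ± 0.26, SE; limma adjusted p = 0.397). In the overexpression experiment it ran from 4580 to 28310 in controls and from 4737 to 7663 in libraries labelled Ftl1 OE, and in the knockdown experiment it was 24.2 to 56.2 in controls and 106 to 140 in libraries labelled Ftl1 KD, so it was not higher under the OE label and was higher under the KD label (log2 fold changes -0.67 ± 0.34 and 1.47 ± 0.25, SE; limma adjusted p = 0.681 and 0.000223). The first value rests on control 9905, at 28310 where the other controls reached at most 9953, and was -0.27 ± 0.22 without it (limma adjusted p = 0.956). Directions below are therefore given for libraries as labelled. Depth was 7969282 to 9537872 reads per library in the aging, 9943996 to 17034325 in the overexpression and 48902 to 358560 in the knockdown experiment, where the ribosomal precursor Rn45s took 30.3% to 55.3% of the reads. The 8 neuronal markers summed to 28098 to 37166 normalized counts in the aging, 42668 to 69544 in the overexpression and 142 to 208 in the knockdown libraries. Markers of other cells were present too, in the overexpression libraries at 22584 to 47563 for 6 oligodendrocyte and 5489 to 38296 for 6 astrocyte markers. Their part in the members' values was not tested.

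Levels between genes were compared as normalized counts per kb of the longest coding transcript, within an experiment. The highest members in the aging and overexpression experiments were beta ring subunits, although Psmb7 and Psmb1 of the same ring ranked 22 and 25 of 48 in young libraries, and the alpha subunit Psma7 ranked 1 in the knockdown controls. The order depends on the transcript taken. Psmb1 and Psmb3 had means of 668 and 678 normalized counts in young libraries, divided by transcripts of 1970 and 766 bases. Which transcripts were expressed was not tested. In young libraries, Psmb6 had 1532 ± 430 counts per kb (SD, n = 3), followed by Psmb5 at 978 ± 311 and by the ATPase Psmc4 at 916 ± 204. Psma7, Psmb3 and Psmc5 came next, between 873 and 903, and these neighbours did not differ beyond their spread. In the overexpression controls the order began with Psmb6 at 8491 ± 4315, Psmb5 at 7822 ± 4780 and Psmb3 at 6933 ± 3305 (SD, n = 5), and the same 3 genes led in the libraries labelled Ftl1 OE.

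The other parts of the particle sat lower. The lid had a median of 389 counts per kb in young libraries, with Psmd6 highest at 736, and the assembly chaperones a median of 117, with Psmg2 highest at 194. Among the activators, Psme2 had 229 and Psme4, a large nuclear activator, had 199. The inhibitor Psmf1 had 120. Psma8, an alpha subunit of the testis, was at 0 in the young, overexpression and knockdown libraries, where a count of 0 allows up to 3 reads each, and at 2.96 and 11.9 normalized counts in aged 2 and aged 3. Psmb11, the beta subunit of the thymus cortex, reached at most 24.5 normalized counts in any library.

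**Figure D1:**
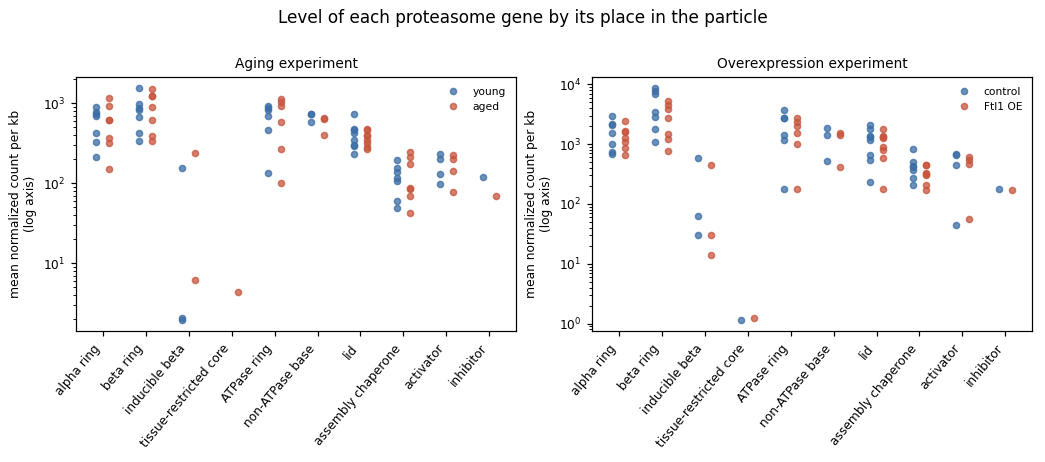
Mean normalized count per kb of transcript (log axis) of each proteasome gene, by its place in the particle, in the aging and the overexpression experiment, with 1 point per gene and group; genes at 0 are not drawn. The beta ring reaches highest, led by Psmb6, and in the aging experiment the inducible beta genes other than Psmb10 and the tissue-restricted genes lie lowest.

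The immunoproteasome subunits split. Psmb8 was read in 1 of 5 aging libraries (9.54 normalized counts in young 2) and Psmb9 in 2 (8.30 in young 1 and 16.8 in aged 2), so their level per kb was at most 0.941% of that of the constitutive partner in any aging library. Psmb10 was of another order. Its level per kb was 31.5% to 47.2% of that of Psmb7 in the young libraries, 116% in aged 2 and 39.1% in aged 3. In the overexpression experiment Psmb10 stood between 33.8% and 115% of Psmb7, while Psmb8 reached at most 1.8% of Psmb5 and Psmb9 at most 1.4% of Psmb6. In the knockdown experiment Psmb9 was at 0 in all 8 libraries.

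With age, 44 of the 48 members could be tested, the limit being a mean over libraries of 10 normalized counts. The test was limma on log2(normalized count + 1), adjusted over all genes tested, with an adjusted p of 0.05 and an absolute log2 fold change of 0.5 as the threshold. No member passed, and neither did any of the 13712 genes tested (0%). At an unadjusted p of 0.05, 0 members were higher and 2 lower, where 2.9% and 5.04% of all genes were. DESeq2 on the recovered reads called 33 genes higher and 105 lower, none of them a member. The median log2 fold change was -0.10 over the 44 members and -0.025 over all genes, and 18 members (40.9%) were above 0, as were 48.3% of all genes.

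The lowest p among the members belonged to the lid subunit Psmd6. It measured 896, 1131 and 1037 normalized counts in young 1, 2 and 3, against 508 and 616 in aged 2 and 3. Both aged values lay below all young values, with a log2 fold change of -0.86 ± 0.29 (SE, limma adjusted p = 0.526). The ATPase Psmc2 measured 715, 804 and 962 against 329 and 638. Here too the groups did not overlap (log2 fold change -0.84 ± 0.35, limma adjusted p = 0.608). Psmd1, the scaffold of the base, measured 1765, 1927 and 1793 against 1034 and 1444 (-0.58 ± 0.27, limma adjusted p = 0.641). The inhibitor Psmf1 had the largest negative value, -0.91 ± 0.46, but aged 3, at 386, lay among the young libraries, at 328 to 592.

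On the other side, Psmb10 measured 172, 243 and 196 in the young and 346 and 287 in the aged libraries. The groups did not overlap, and its log2 fold change was 0.64 ± 0.40 (SE, limma adjusted p = 0.689). Psme1 measured 87.1, 144 and 204 against 239 and 212, again without overlap, with 0.71 ± 0.50 (limma adjusted p = 0.728). Its partner Psme2 did not go with it, at 247, 207 and 208 against 302 and 137. Groups without overlap were found for 2 members on the higher and 7 on the lower side, which is 4.55% and 15.9% of the 44, beside 12.2% and 12.5% of all genes. The exact permutation test of 3 against 2 libraries cannot give a p below 0.1.

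The catalytic subunits of the core did not separate the ages. Psmb5 measured 558, 1066 and 1015 in the young and 772 and 1441 in the aged libraries, with a log2 fold change of 0.32 ± 0.37. Psmb6 measured 827, 1415 and 1425 against 1054 and 1338, with a log2 fold change of 0.0016 ± 0.32. Psmb7 measured 323, 591 and 550 against 263 and 649, with -0.19 ± 0.44. For Psmb5, Psmb6 and Psmb7 alike, the 2 aged libraries lay on either side of the young mean. The 95% confidence interval of Psmb6 reached from -0.69 to 0.69, so changes of up to that size were not excluded.

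The 2 aged libraries differed from each other. Aged 3 was above aged 2 for 34 of the 44 members (77.3%), where 49.2% of all genes showed that order. For 7 members (15.9%), aged 2 lay below and aged 3 above every young library, as for 7.42% of all genes, and the opposite held for 1 member (2.27%) and 7.69% of all genes. The alpha ring of aged 2 summed to 4606 normalized counts and that of aged 3 to 7754, on both sides of the young range of 5590 to 6979. The beta ring summed to 4396 in aged 2, within the young range of 3863 to 6604, and to 7561 in aged 3, above it. The median of the members was 0.20 without aged 2 and -0.27 without aged 3, so the direction for the set turned with the library left out.

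Members with GC-rich transcripts, and those with shorter ones, tended to have the higher fold changes with age. Across the 44 members, the rank correlation of the log2 fold change with transcript GC content was 0.60, against 0.26 across 13186 genes with an annotation. With transcript length it was -0.47 across the members and -0.064 across those genes. The points are genes of the same 5 libraries and share their preparation and depth. The part of GC content or length in the age differences was not tested.

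**Figure D2:**
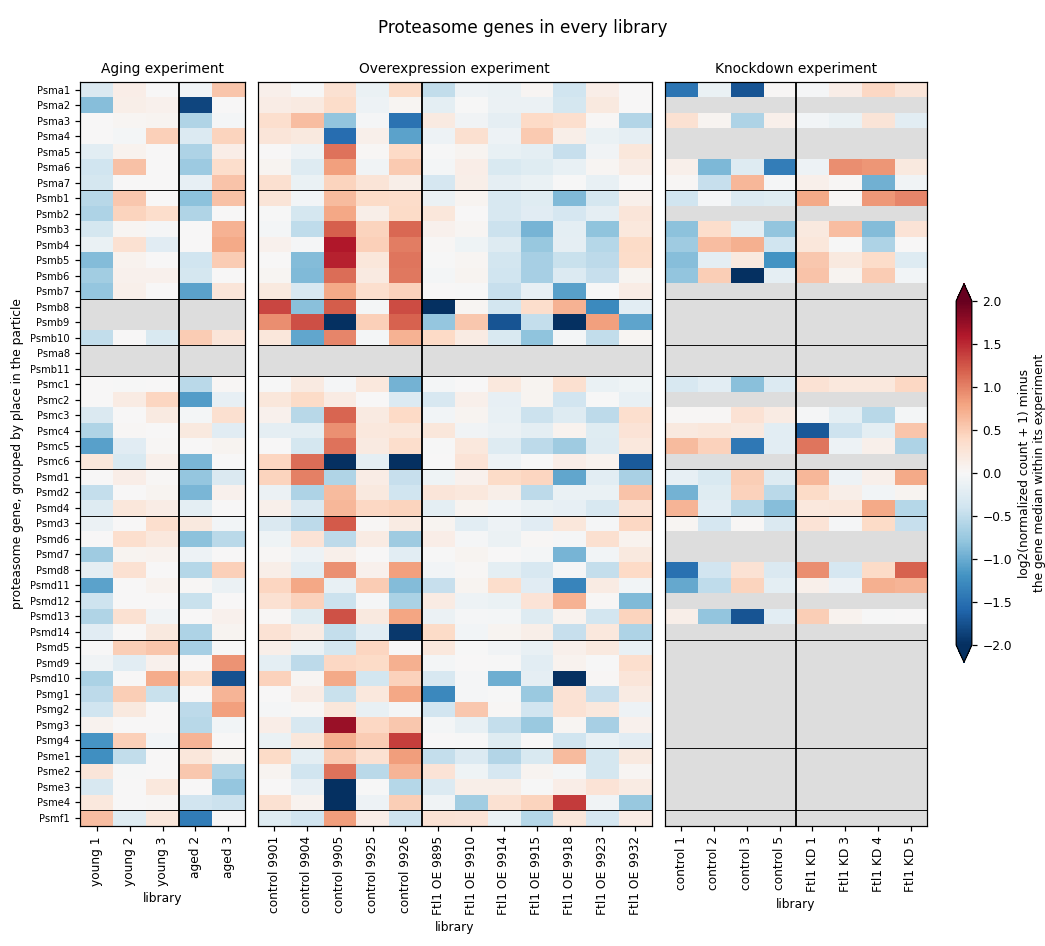
Each cell is the log2(normalized count + 1) of 1 proteasome gene in 1 library minus the median of that gene within its experiment; rows are genes ordered from the alpha ring to the inhibitor, columns are libraries, the vertical line parts the 2 groups, and grey marks genes with a mean below 10. Aged 2 and aged 3 differ in sign for many genes, control 9905 and control 9926 stand out in red and blue, and in the knockdown experiment red cells are more frequent in the libraries labelled Ftl1 KD.

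In the overexpression experiment, 46 members were tested. The threshold was an adjusted p of 0.05, which no member and none of the 14099 genes passed (0%). At an unadjusted p under 0.05, 0 members were higher and 4 lower in the libraries labelled Ftl1 OE (8.70%), beside 3.6% and 3.66% of all genes. That count of 4 was 16 without control 9904, 9 without Ftl1 OE 9932, 2 without control 9905, Ftl1 OE 9915 or Ftl1 OE 9923, 7 with edgeR and 11 with DESeq2. The share of all genes at that p was not counted under these alternatives, so the counts are descriptions only. DESeq2 called 8 genes higher and 83 lower, with no member among them, the lowest adjusted p of a member being 0.070 for Psmb4. The median log2 fold change was -0.27 over the members and 0.10 over all genes. Only 12 members (26.1%) were above 0, where 57.4% of all genes were. In no member did the 5 controls and the 7 libraries labelled Ftl1 OE part without overlap, as 0.17% of genes did upward and 0.411% downward.

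All 7 beta ring genes were on the lower side, from -0.84 to -0.27. Psmb4 measured 2089, 1945, 5981, 2754 and 4023 in controls 9901, 9904, 9905, 9925 and 9926. The libraries labelled Ftl1 OE ran from 1172 over a median of 1737 to 2573, so that 2 of the controls lay far above them and the other 3 above their median. The log2 fold change was -0.84 ± 0.28 (SE, limma adjusted p = 0.542). Psmb1 measured 3406, 2719, 4402, 3712 and 3676 in the same order of controls, against 1541, 2394 and 3038 as lowest, median and highest. Here 4 of the 5 controls were above every library labelled Ftl1 OE, and the log2 fold change was -0.57 ± 0.19 (limma adjusted p = 0.546). Psmb3 measured 3421, 2473, 8041, 4799 and 7819 against 1842, 3072 and 4060, with -0.74 ± 0.30 (limma adjusted p = 0.619).

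The catalytic beta subunits showed the same shape. Psmb5 measured 4566, 2505, 13188, 5322 and 9578 in the controls and from 2869 over 3542 to 5882 in the libraries labelled Ftl1 OE. Its 3 other controls lay within or below the range of the treated libraries. The log2 fold change was -0.62 ± 0.33 over all libraries and -0.017 without controls 9905 and 9926. Psmb6 measured 5011, 2639, 10544, 5525 and 10159 against 3064, 4056 and 5091, and its log2 fold change went from -0.55 ± 0.29 to -0.024 in the same way. Psmb7 measured 1140, 799, 1678, 1258 and 1364 against 466.4, 986 and 1096, and its log2 fold change went from -0.51 ± 0.24 to -0.30.

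Summed over the beta ring, control 9905 held 48071 and control 9926 held 39848 normalized counts, where the other 3 controls held 15011 to 26049 and the libraries labelled Ftl1 OE 14346 to 24674. The alpha ring differed less. It summed to 14297 to 18363 in the controls and 12840 to 14947 in the libraries labelled Ftl1 OE, with control 9905 the highest of the 12 libraries and control 9926 the lowest control. Psma1, Psma5 and Psma6 were above all 10 other libraries in both. Psma7 measured 3712, 2727, 4046, 3566 and 3220 in the controls against 2362, 2727 and 3231, with a log2 fold change of -0.30 ± 0.16. Psma4 went the other way (0.48 ± 0.31), with controls 9905 and 9926 at 330 and 452, below every other library of the experiment.

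The regulatory particle was mixed. In the ATPase ring, Psmc5 measured 3944, 3089, 8324, 4439 and 4987 in the controls against 2403, 3273 and 4561, with a log2 fold change of -0.45 ± 0.24. Psmc6 measured 579, 933, 35.2, 378 and 62.6 against 133, 430 and 516, with 0.80 ± 0.69. Controls 9905 and 9926 were thus the 2 highest of all libraries in Psmc5 and the 2 lowest in Psmc6, although both genes encode subunits of 1 ring. The base subunit Psmd4 measured 2842, 2176, 4210, 3529 and 3587 against 2114, 2414 and 3232 (-0.34 ± 0.19). Of the 8 lid genes 3 were above 0 and 5 below, between -0.45 and 0.38. The lid subunit Psmd6 was among the higher ones (0.23 ± 0.19), with controls 9905 and 9926 again lowest, at 1250 and 1085. Psmd3 was at -0.10 ± 0.25.

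Among the assembly chaperones and activators, Psmg3 measured 513, 375, 1538, 623 and 675 in the controls against 277, 419 and 496, with a log2 fold change of -0.78 ± 0.32 (limma adjusted p = 0.629). Psme3, the nuclear activator PA28 gamma, measured 1563, 1388, 364, 1541 and 1041 against 1281, 1688 and 1881. It had the lowest p of the members that were higher (0.64 ± 0.30, limma adjusted p = 0.672), and the value was 0.13 without controls 9905 and 9926. Psme2 was at -0.24 ± 0.28 and Psmf1 at -0.0045 ± 0.26.

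The inducible subunits were low and scattered. Psmb8 measured 148, 32.0, 135, 56.2 and 145 in the controls and from 1.2 over 49.6 to 94.5 in the libraries labelled Ftl1 OE, with a log2 fold change of -1.38 ± 0.89 (limma adjusted p = 0.717). Psmb9 measured 49.0, 62.7, 0, 35.3 and 58.0 against 0, 14.3 and 45.0 (-0.89 ± 1.21). Psmb10 measured 732, 305, 1228, 611 and 1012 against 356, 609 and 822 (-0.31 ± 0.32). All 3 pairs of ranges overlapped. The 8 microglial markers, of cells that express Psmb8 and Psmb9 strongly, summed to 2384 to 5321 in the controls and 1431 to 2666 in the libraries labelled Ftl1 OE. Fewer such cells and less RNA per cell cannot be told apart in bulk nuclei, and the part of microglial RNA in these values was not tested.

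**Figure D3:**
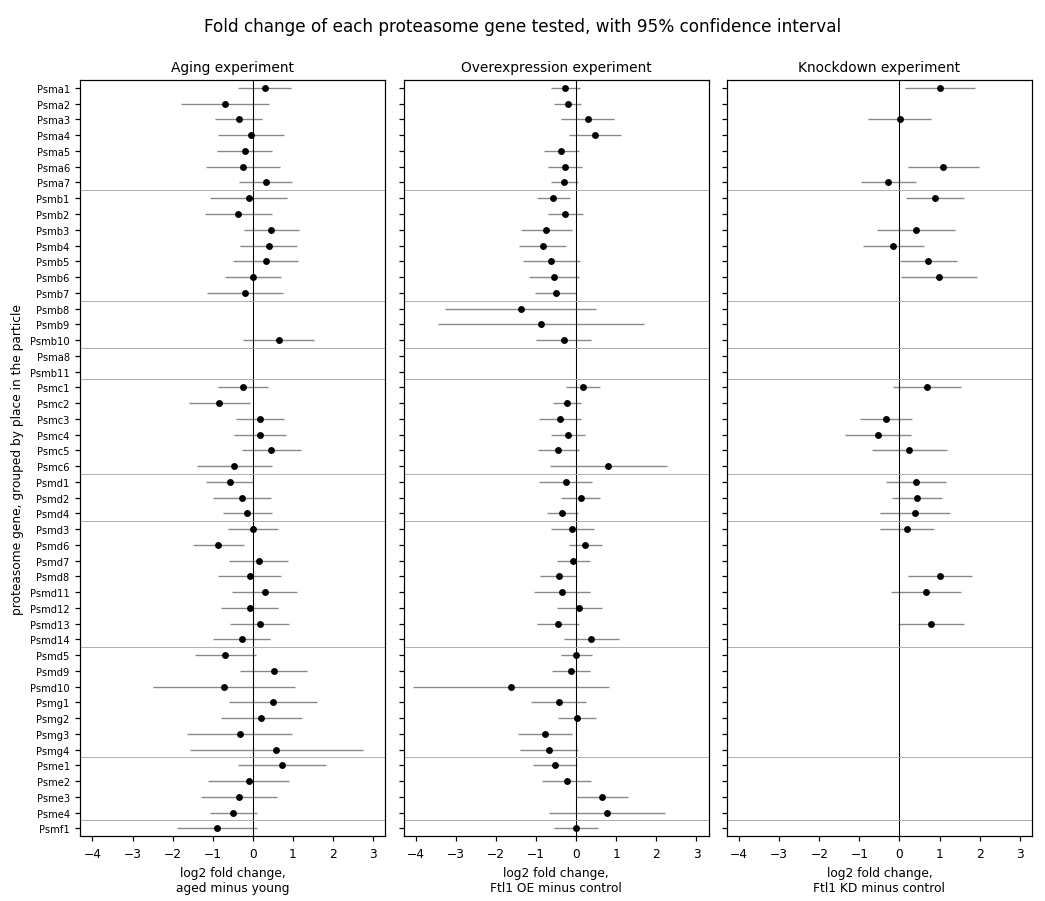
Points are log2 fold changes of the tested proteasome genes on the log2(normalized count + 1) scale and bars their 95% confidence intervals, in the aging (aged minus young), the overexpression (Ftl1 OE minus control) and the knockdown experiment (Ftl1 KD minus control). All 7 beta ring genes lie below 0 in the overexpression experiment, while in the knockdown experiment 16 of the 20 that reached a mean of 10, in part through the group where they were higher, lie above 0.

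Controls 9905 and 9926 were then read against the other 10 libraries of the experiment, after their values had been seen. Both lay above all 10 for 20 of the 46 members (43.5%) and below all 10 for 5 (10.9%), where 13.7% and 11.9% of all genes did. The 20 genes had a median transcript GC content of 52.7% and the 5 genes one of 45.0%. Against the mean of the other 3 controls, their mean was 2.76-fold for Psmb5 and 2.36-fold for Psmb6 at the upper end, and 0.372-fold for Psma3, 0.362-fold for Psma4 and 0.0791-fold for Psmc6 at the lower end. Psmb5 and Psmb6, with the GC-rich coding starts shown, were thus at one end, and Psma3 and Psmc6, with the GC-poor ones, at the other. Other GC-poor members lay elsewhere. The ratio was 1.1 for Psma2 (39.4% GC), and Psmd10 (42.3%, ratio 1.45) and Psma1 (44.0%, ratio 1.28) were above all 10 other libraries.

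Across the 46 members, the deviation of a library from the gene median followed GC content with a rank correlation of 0.65 in control 9905 and 0.67 in control 9926, against 0.38 and 0.46 over 13571 genes. It ran the other way in control 9904 (-0.65), in Ftl1 OE 9923 (-0.67) and in Ftl1 OE 9915 (-0.56). It was positive also in control 9925 (0.46) and Ftl1 OE 9932 (0.46). It was 0.02 in Ftl1 OE 9895 and -0.04 in Ftl1 OE 9910. With transcript length the correlation over the members was -0.40 in control 9905, -0.51 in control 9926, 0.24 in control 9904 and 0.62 in Ftl1 OE 9914. The log2 fold change itself had a rank correlation of -0.56 with GC content over the members and -0.23 over all genes. With length these values were 0.51 and 0.27. Without controls 9905 and 9926 the correlation with GC content was 0.17 over the members and 0.35 over all genes. That with length was then 0.067 and 0.039. These genes share libraries, depth and preparation, so the values are descriptions. Whether the composition or length of the transcripts caused the spread was not tested.

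**Figure D4:**
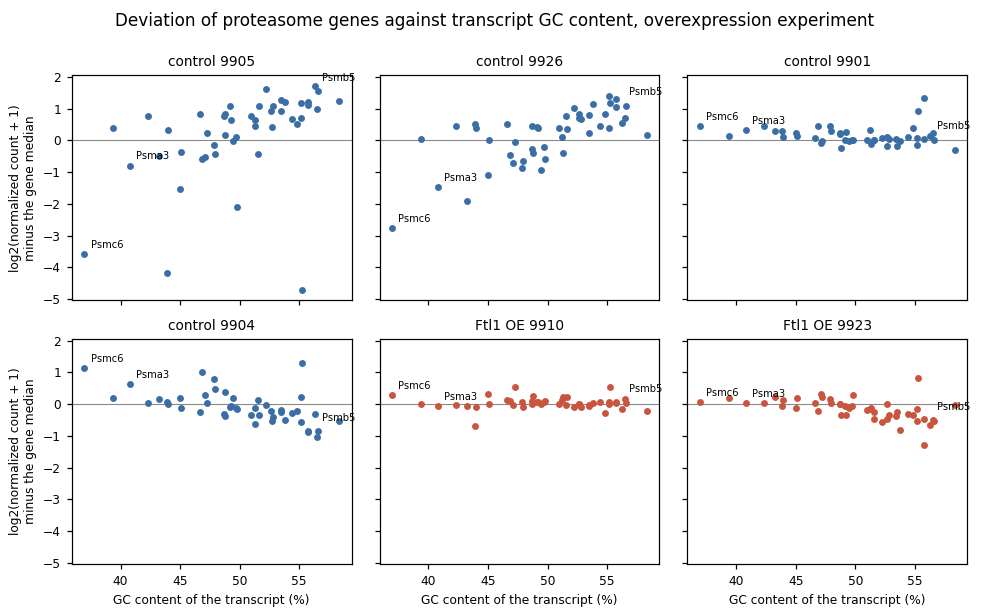
Each point is 1 of 46 proteasome genes in 1 of 6 libraries of the overexpression experiment; the horizontal axis is the GC content of its transcript in % and the vertical axis its log2(normalized count + 1) minus the median of that gene over 12 libraries. The points climb from left to right in controls 9905 and 9926, with Psmc6 among the lowest points, lie nearly flat in Ftl1 OE 9910, and descend in control 9904, Ftl1 OE 9923 and, less so, control 9901 (rank correlation -0.31).

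With controls 9905 and 9926 left out, an alternative added after the data had been seen, no member passed (lowest limma adjusted p = 0.839). The members' median was -0.12 and that of all genes -0.048. Of the 46 members 36 (78.3%) were below 0, beside 54.3% of all genes, all 7 beta ring genes among them with a median of -0.26. At an unadjusted p of 0.05, Psmb1, Psmd1 and Psmd11 were lower and no member higher, beside 2.01% and 3.64% of all genes. With controls 9905 and 9926 kept, the controls also varied more than the treated libraries. The SD of log2 counts was larger in the controls for 36 members (78.3%), and for 77.9% of all genes.

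In the knockdown experiment, the depth left 20 of the 48 members with a mean of at least 10. A member can pass that mean through the group where it is higher, so counts over these 20 are descriptions. No member passed the adjusted p of 0.05, whereas 10.5% of the 1460 genes tested passed upward and 13.7% downward. At an unadjusted p under 0.05, 6 members were higher (30%) and 0 lower, beside 17.5% and 20.7% of all genes. The median log2 fold change was 0.43 over the members and -0.012 over all genes, and 16 members (80%) were above 0, as were 49.5% of all genes.

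The lowest adjusted p was that of the lid subunit Psmd8, which measured 4.72, 11.3, 18.7 and 12.1 normalized counts in controls 1, 2, 3 and 5 and 29.7, 11.7, 20.04 and 35.3 in Ftl1 KD 1, 3, 4 and 5. These rest on 5 to 31 reads per library. Ftl1 KD 3 lay among the controls, and the log2 fold change was 1.01 ± 0.39 (SE, limma adjusted p = 0.0585). Psmb1 measured 8.49, 11.3, 9.36 and 9.61 against 20.1, 11.7, 21.9 and 23.5, from 5 to 28 reads per library. Its groups did not overlap (0.89 ± 0.35, limma adjusted p = 0.0635). The alpha subunit Psma6 measured 12.3, 5.65, 9.36 and 3.76 against 10.55, 22.5, 21.9 and 13.2, with 1.09 ± 0.43 (limma adjusted p = 0.0644). Psmd8 and Psma6 passed with edgeR on the recovered reads (adjusted p = 0.0306 and 0.0333), these 2 and Psmb1 with median centring (0.0367 to 0.0432), and none with DESeq2 (lowest adjusted p = 0.0501) or TMM scaling.

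Of the catalytic subunits, Psmb5 measured 10.4, 16.9, 22.5 and 7.94 in the controls against 28.8, 22.5, 25.5 and 16.2, and its groups overlapped, Ftl1 KD 5 lying below controls 2 and 3 (0.72 ± 0.34, limma adjusted p = 0.120). Psmb6 measured 7.55, 19.8, 1.87 and 12.1 against 21.1, 14.4, 20.04 and 13.2, with 0.98 ± 0.47 (limma adjusted p = 0.120). The value of control 3 rested on 1 read. Psmb7 was below the limit on the mean and was not tested. The inducible subunits had at most 8 reads in any library, too few for a comparison.

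Only 4 of the 20 members were on the lower side. The ATPase Psmc3 measured 16.99, 16.9, 20.6 and 18.8 in the controls against 16.3, 14.4, 10.9 and 16.2. Its groups did not overlap, although the log2 fold change was small, -0.33 ± 0.32. Psmc4 measured 16.99, 17.3, 16.9 and 12.5 against 3.84, 10.8, 12.8 and 22.04, with -0.53 ± 0.41. Psma7 was at -0.28 ± 0.34 and Psmb4 at -0.15 ± 0.37. Over the 20 members, the groups did not overlap for 2 that were higher (Psmb1 and Psmc1, 10%) and 1 that was lower (Psmc3, 5%), beside 11.8% and 11.9% of all genes. The smallest p that the exact permutation test of 4 against 4 libraries can give is 0.0286. Psmc5 was at 0.25 ± 0.45 and the base subunit Psmd2 at 0.44 ± 0.30.

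Sums over whole parts use every member, tested or not. The 48 genes summed to 322 to 384 normalized counts in the controls, all below the 448 to 505 of the libraries labelled Ftl1 KD, from 202 to 951 reads per library. The 8 lid genes summed to 64.1 to 74.9 and 96.5 to 112, and the 7 alpha ring genes to 65.5 to 71.7 and 82.3 to 101. These groups did not overlap. How often sums over other sets of genes of like size part in this way was not tested, so the sums are descriptions. The ATPase ring overlapped, at 54.3 to 72.2 and 63.8 to 77.9, and so did the beta ring, at 51.0 to 100 and 97.4 to 126, through control 2. The activators, at 5.62 to 12.3 and 6.71 to 19.1, the assembly chaperones, at 14.98 to 18.9 and 10.3 to 16.4, and the inhibitor rested on few reads and overlapped.

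As a share of reads other than Rn45s, the 48 genes held 0.478% to 0.630% in the controls and 0.737% to 0.828% in the libraries labelled Ftl1 KD. Other features of these libraries moved with the label. The controls of the knockdown experiment held 68092 to 358560 reads and 31.9% to 55.3% Rn45s, and the libraries labelled Ftl1 KD 48902 to 97104 reads and 30.3% to 34.5%. The 5 nuclear noncoding RNAs of a fixed list summed to 611 to 1222 in the controls and 211 to 314 in the libraries labelled Ftl1 KD, and 4 of 4 tested, Malat1, Meg3, Snhg11 and Miat, were called lower. The 6 oligodendrocyte markers summed to 36.8 to 93.6 and 10.9 to 21.6. The 6 astrocyte markers summed to 22.5 to 53.8 in the controls and 46.0 to 67.6 in the libraries labelled Ftl1 KD, and Slc1a3 was called higher (2.05 ± 0.39, limma adjusted p = 0.00054). Of the neuronal markers, Gad1 was called higher (1.49 ± 0.36, limma adjusted p = 0.0038) and Slc17a7 lower (-1.35 ± 0.46, limma adjusted p = 0.0327). The part of depth, nuclear RNA, neuron types and other cells in the members' values was not tested.

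**Figure D5:**
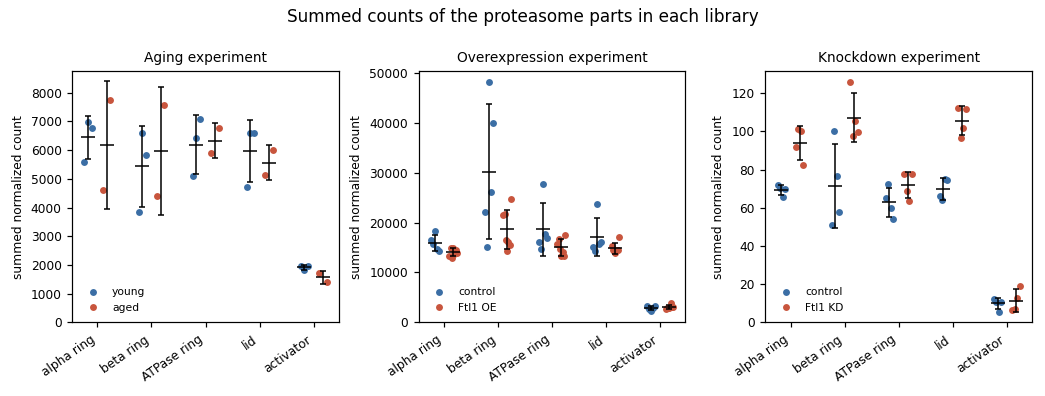
Summed normalized counts of 5 parts of the proteasome in each library (points) with the mean and SD of each group (black bars), by experiment; scales differ between experiments because each was normalized separately. Controls 9905 and 9926 lift the beta ring in the overexpression experiment, and the alpha ring and lid of the knockdown experiment part without overlap.

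Genes that work with the proteasome were read from fixed lists. Of the 15 associated proteins and ubiquitin shuttles in the tables, 0 passed in any experiment, and 2 reached the mean of 10 in the knockdown experiment. In the overexpression comparison the lowest p values were those of Shfm1, the smallest lid subunit, at -0.66 ± 0.24 (limma adjusted p = 0.583), and of Pomp, the chaperone of 20S assembly, at -0.62 ± 0.23 (limma adjusted p = 0.592). Both were lower, as the beta ring was. With age no gene of that list had an unadjusted p below 0.2.

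The ubiquitin genes gave 0 calls of 6 tested with age, 0 of 6 in the overexpression and 0 of 5 in the knockdown experiment. Rps27a, which encodes ubiquitin fused to a ribosomal protein, was at -0.75 ± 0.20 in the overexpression comparison (limma adjusted p = 0.499). Vcp, the p97 ATPase that pulls ubiquitylated proteins out of complexes, passed in the knockdown comparison, the only call among these lists outside the markers and noncoding RNAs. It had 24.7 ± 7.32 normalized counts in the controls and 52.6 ± 11.1 in the libraries labelled Ftl1 KD (SD, n = 4 per group), and the difference was 1.08 ± 0.28 in log2 units (limma adjusted p = 0.00571).

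The NRF1 axis, of which 4 genes were tested in the aging and overexpression experiments and 1 in the knockdown experiment, gave 0 calls. Ddi2, the protease that activates NRF1, was at -4.77 ± 1.42 with age (limma adjusted p = 0.461), from a mean of 302 ± 118 (SD, n = 3) to 55.8 ± 79.0 (SD, n = 2). Aged 3 was at 0 and aged 2 at 112, so the size of that value rests on 1 library at 0. Nfe2l1 itself was at 0.43 ± 0.22 in the overexpression comparison (limma adjusted p = 0.685). The MHC class I pathway, which receives peptides from the immunoproteasome, gave 0 calls of 8 tested with age and 0 of 8 in the overexpression experiment. Tap1 was at 1.76 ± 0.97 with age (limma adjusted p = 0.656) and H2-K1 at -0.99 ± 0.48 in the overexpression comparison (limma adjusted p = 0.672).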

How the data were processed

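Poly(A) RNA of NeuN-sorted hippocampal nuclei was sequenced in 25 libraries. The authors aligned reads to mm10 with STAR, quantified genes with RSEM and deposited, for each of 3 experiments, counts divided by DESeq2 size factors (a signal per gene and library), normalized separately. Whole reads were recovered by the size factor for 100% of values (tolerance 0.01). The authors' fold changes, standard errors, statistics and p-values were not used, and 0 library columns were left out. The study's methods and the sample records describe different library kits.

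Groups came from the genotype or age in the sample records, and the sample titles told the controls of the viral experiments apart. Genes with a mean of at least 10 were tested with limma 3.58.1 (R 4.3.3) on log2(normalized count + 1) as a trended fit without covariates and with Benjamini-Hochberg adjustment over all genes tested. The pseudocount shrinks fold changes between low values, whereas a single library at 0 can enlarge them. Alternatives were pseudocounts of 0.5 and 5, no filter or a mean of 100, TMM scaling, median centring, edgeR 4.0.16 and DESeq2 1.42.0 on recovered reads, a replicate block, no limit on the fold change with age and each library left out. The fits were checked on simulated counts. The members and gene lists were chosen with earlier results of these data known. Named were members with the 3 smallest p in each direction, catalytic and inducible beta subunits and the member highest per kb in each part. Others were named after their values had been seen. GENCODE M21 gave positions, lengths and GC content for all 48 members and 23376 of 24411 genes. Within groups, the lowest chi-square per degree of freedom between libraries was 25.4 with age, 38.8 under overexpression and 1.4 under knockdown. No library of the aging or overexpression experiment thus repeated another. The knockdown value lies near that of counting error alone, so it does not settle this for the knockdown libraries. Intervals cover the spread between libraries, and counting error limits the knockdown values most.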

Additional observations from a re-analysis of the deposited data

Results flagged for a closer look

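For named members, 3 values stood farther from the rest of their group than the 95% limit of Dixon's test allows, among 62 groups of libraries examined, of which chance alone gives about 1 in 20. In the overexpression experiment, control 9905 had 8618 normalized counts of the lid subunit Psmd3, where the other 4 controls had 2579 to 4121. The same library had 1538 of the assembly chaperone Psmg3, where the others had 375 to 675. In the knockdown experiment, control 5 had 12.5 of the ATPase Psmc4, where the other 3 controls had 16.9 to 17.3. The first 2 belong to a library that also stood high in the beta ring.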

How the results depend on the processing

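In the aging and overexpression experiments 0 members passed under every alternative run. Over all genes, DESeq2 called 138 with age and 91 in the overexpression experiment, and leaving out libraries 1 at a time gave 0 to 1 calls there, the 1 without control 9925. In the knockdown experiment 354 genes passed, 18 with a mean of at least 100, which left no member to test, and 173 with the replicate block; between 244 and 437 passed when libraries were left out. Of 20 members tested there, 1 was called with a pseudocount of 5, 3 with median centring and 2 with edgeR, all higher. Of all 1460 genes, 164, 197 and 192 were called higher under these settings. Leaving out libraries gave 0 to 3 members (1 to 3 of Psma1, Psma6, Psmb1, Psmb5 and Psmd8, without control 1, control 3, control 5 or Ftl1 KD 3, the 3 without control 3). Median centring moved the median of all genes to 0.098 from -0.012 and the split of all calls to 197 higher and 161 lower from 154 and 200. With single libraries left out, the members' median ranged from -0.27 (without aged 3) to 0.20 (without aged 2) with age, from -0.38 (without control 9904) to -0.17 (without control 9905) in the overexpression and from 0.36 to 0.57 (without Ftl1 KD 3) in the knockdown experiment. It was 0.35 there with a pseudocount of 5, and -0.12 in the overexpression experiment without controls 9905 and 9926. The cause was not tested.

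The labels number replicates alike in the aging and knockdown experiments, but same-numbered libraries did not deviate together (correlations of -0.05 and 0.02 with age and -0.03, -0.02 and -0.05 in the knockdown experiment). With the replicate block the members' medians were -0.24 with age and 0.50 in the knockdown experiment, and 0 members passed in each.

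Signs turned as follows, none of them for a call. With age, Psmb6 was at -0.011 with TMM, -0.041 with edgeR, -0.032 with DESeq2 and -0.26 with the replicate block or without young 1. Leaving out single libraries, Psma7 ranged from -0.053 to 0.69, Psmb5 from -0.13 to 0.77, Psmb6 from -0.26 to 0.17, Psmb7 from -0.84 to 0.46, Psme2 from -0.68 to 0.46 and Psmg2 from -0.46 to 0.88, each set by leaving out aged 2 or aged 3 except the lowest of Psmb6 (without young 1). Without controls 9905 and 9926, Psma4 was at -0.12, Psmb10 at 0.13, Psmd3 at 0.28, Psmd6 at -0.063, Psme2 at 0.23 and Psmf1 at 0.15. Psmd3 was at 0.18 without control 9905. Psmf1 was at 0.049 with TMM and between -0.10 and 0.21 without single libraries. Psmc5 ranged from -0.18 (without control 3) to 0.51.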

Other observations

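Psme2b, a copy of the activator gene Psme2 whose name lies outside the rule, had 17.3 to 55.7 normalized counts in the overexpression libraries, 0.887 to 20.7 in the aging libraries and 0 to 0.944 in the knockdown libraries.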
